A study of Mus musculus with 6 samples.

Results

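The genes described here encode the machinery that brings proteins into mitochondria and then cuts, folds or degrades them. They were taken by name from the deposited count table: every gene whose name begins with Timm or Tomm followed by a digit, together with Hspd1, Hspe1, Hspa9, Lonp1, Clpp, Clpx, Yme1l1, Afg3l2, Samm50, Pmpca, Pmpcb, Grpel1 and Trap1. This gave 39 of the 54532 genes in the table. The rule reads gene names alone, but the set was proposed with earlier results of these data known. RNA sequencing was done on 6 samples of the mouse fibroblast line 3T3, labelled wild-type adipocytes: 3 given only the solvent DMSO and 3 given 200 µM baicalin, a plant flavonoid glucuronide. The labels give no subline, differentiation protocol or length of treatment, and do not say that the 3 samples of a group were separate cultures, so the p-values may measure technical spread alone.

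Nearly all mitochondrial proteins are made in the cytosol from nuclear genes and enter through the TOM complex, the gate of the outer membrane. From there, SAM inserts barrel-shaped proteins into the outer membrane, small TIM chaperones carry water-averse proteins across the space between the membranes, TIM22 inserts carriers into the inner membrane, and TIM23 passes proteins with a cleavable leader to the matrix with the pull of a motor built on mitochondrial HSP70. Inside, a peptidase removes the leader, chaperones fold the protein, and ATP-driven proteases remove what is damaged or surplus. Fat cells need this machinery because their mitochondria supply the energy and carbon for making and breaking down lipid.

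Transcripts of this machinery were mostly higher with baicalin, by modest amounts. Of the 35 members with enough reads to test, 23 (65.7%) were higher and 4 (11.4%) lower, and 8 were not called. Among all 13728 genes tested, 33.6% were called higher and 34.1% lower, with a call meaning an adjusted p under 0.05 in edgeR. The median log2 fold change was 0.30 over the tested members and 0.00 over all genes tested. The called values ran from -0.28 for Timm44 to 0.89 for Timm8a1. None of the 35 tested members changed by as much as 2-fold. A rise of at least 1.5-fold was called for 6 members (17.1%), against 12.3% of all genes: Timm8a1, Afg3l2, Lonp1, Hspa9, Timm13 and Tomm5. The baicalin and DMSO libraries did not overlap for 26 members (74.3%), a share close to the 70.2% of all genes.

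These counts depend on how libraries are scaled. With scaling by library size alone, 37.4% of all called genes were higher instead of 49.7%, the median over all genes moved from 0.00 to -0.13, and the members stood at 20 higher and 6 lower. After correction for trends on gene length and transcript GC content, 60.6% of called genes were higher, and the members stood at 26 higher and 2 lower. The number of members at 1.5-fold or more also depends on the setting. Tomm5 lay on that cut (1.5004-fold), and its log2 fold change ran from 0.456 after length correction alone to 0.648 without baicalin replicate 3. That of Timm13 ran from 0.423 after length and GC correction to 0.713 without baicalin replicate 1. The fold changes below are relative to the TMM scaling.

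**Figure D1:**
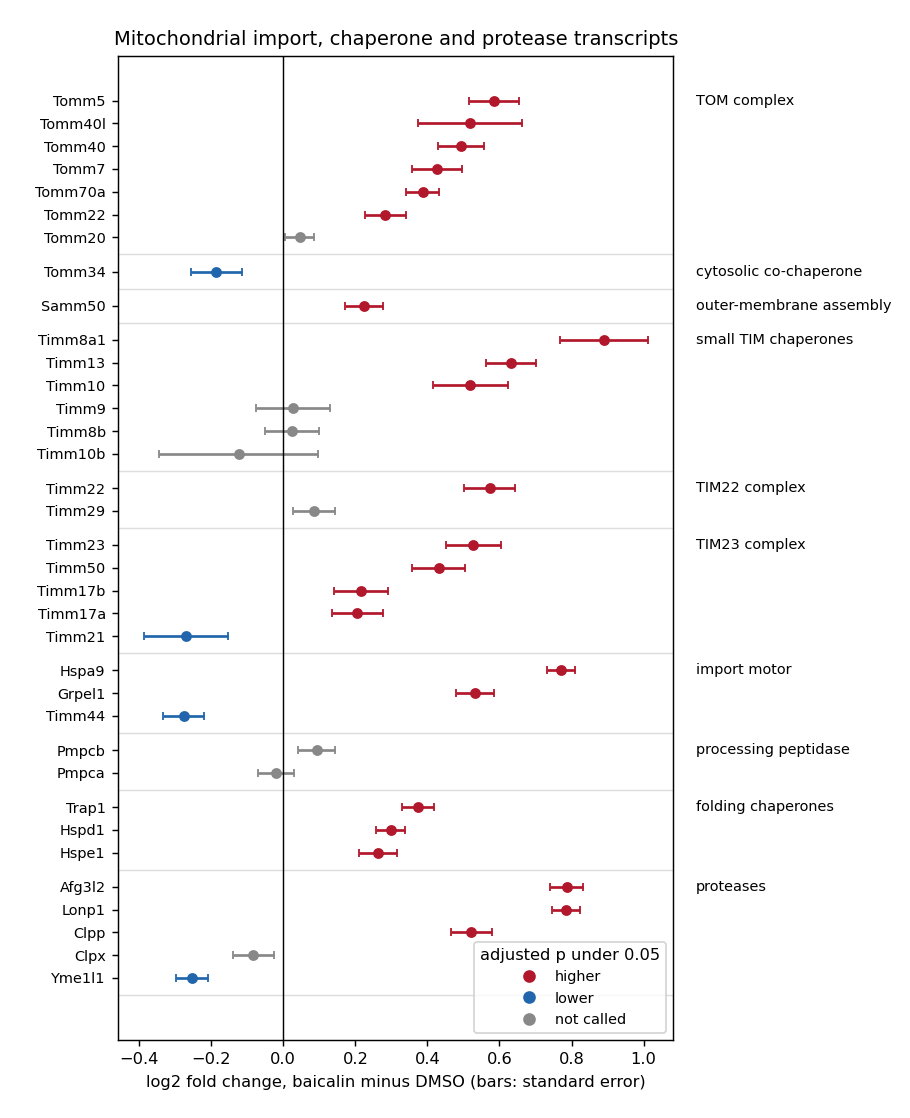
Log2 fold change of baicalin over DMSO (horizontal axis) for the 35 tested members, grouped by role, from 3 libraries a group. Points are the fitted values, bars the standard error, red a call higher, blue a call lower and grey no call. Red points fill the right side, and the 4 blue points, Tomm34, Timm21, Timm44 and Yme1l1, lie between -0.28 and -0.19.

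By level the set was led by the matrix chaperones. On the FPKM scale, which divides by gene length, Hspa9 was the highest member in DMSO at 120 ± 6.48 (SD, n = 3) and Hspd1 the next at 96.0 ± 4.13. Lonp1 (55.1 ± 2.06), Timm8b (54.4 ± 2.23) and Hspe1 (50.5 ± 2.90) followed. The libraries of Lonp1 overlapped those of Timm8b, and those of Timm8b overlapped Hspe1, but Lonp1 and Hspe1 did not overlap. In baicalin the FPKM of Hspa9 was 206 ± 4.73, of Hspd1 119 ± 3.48 and of Lonp1 95.9 ± 0.41, while Timm8b stood at 55.9 ± 5.26. The lowest tested members in DMSO were Timm10b at 0.90 ± 0.0909 and Tomm40l at 1.12 ± 0.183 FPKM.

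**Figure D2:**
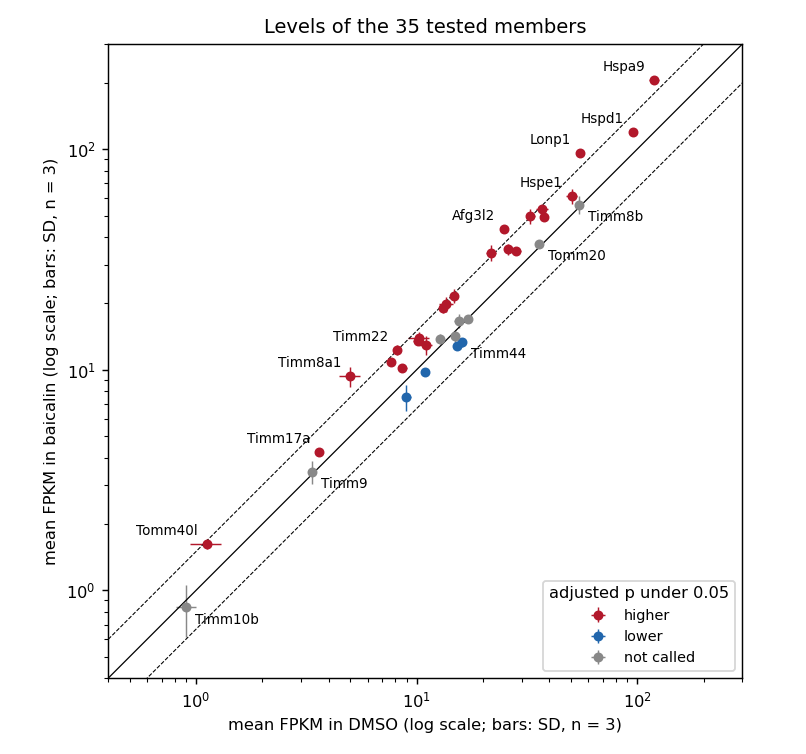
Mean FPKM of the 35 tested members in DMSO (horizontal, log scale) and baicalin (vertical, log scale), with bars for the SD over 3 libraries. The solid line marks equal levels and the dashed lines a 1.5-fold difference, and colours mark the calls. Hspa9, Hspd1 and Lonp1 are the highest members, and no member lies below the lower dashed line by its mean.

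At the outer membrane, 6 of the 7 tested TOM genes were higher. Tomm5, a small subunit that stabilises the complex (chromosome 4, 45105208 to 45108114, GRCm38), was at 29.2, 26.8 and 28.8 CPM (read counts scaled to a common library total, with TMM factors) in the DMSO libraries and at 45.7, 42.1 and 39.5 CPM in the baicalin libraries. Every baicalin library was above every DMSO library, a 1.5-fold rise (log2 fold change 0.59, SE 0.07, adjusted p = 1.66e-10). Tomm40, the channel itself, rose 1.41-fold from 34.3 ± 1.03 to 48.3 ± 2.10 CPM (SD, n = 3 each), and Tomm40l, its low-level paralog, 1.43-fold. Tomm7, another small subunit, rose 1.34-fold. Among the receptors, Tomm70a takes in carriers delivered by cytosolic chaperones. It had 101, 103 and 92.6 CPM in DMSO and 129, 131 and 128 CPM in baicalin. Its groups did not overlap, a 1.31-fold rise (log2 fold change 0.39, SE 0.05, adjusted p = 1.51e-10, the lowest of the TOM genes). The log2 fold change of Tomm70a was 0.64 after length correction and 0.96 after length and GC correction. Tomm70a shares 41 exon bases with Nit2 on the other strand. Tomm22, the central organiser of the complex, rose 1.22-fold. Tomm20, the receptor for leader peptides, went uncalled: its level was 174 ± 4.97 CPM with the solvent alone and 179 ± 2.71 CPM with baicalin (adjusted p = 0.317, log2 fold change 0.05, SE 0.04). A processed copy of Tomm20 that is 99.5% identical over 435 bases had 1773 reads, against 18660 for Tomm20, so Tomm20 is uncertain.

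Samm50, the barrel of the SAM complex, had 54.8, 54.1 and 59.3 CPM in DMSO and 67.3, 65.7 and 63.7 CPM in baicalin. The groups did not overlap, and the gene was higher by a log2 fold change of 0.22 (SE 0.05, adjusted p = 0.000199), a call lost with library-size scaling (adjusted p = 0.0996). Tomm34, a cytosolic co-chaperone of preproteins that is not a TOM subunit, went the other way. It had 32.8, 34.0 and 32.3 CPM in DMSO and 29.9, 28.3 and 29.0 CPM in baicalin, a small fall (log2 fold change -0.19, SE 0.07, adjusted p = 0.0177). The fall of Tomm34 was no longer called with DESeq2 (adjusted p = 0.116), without the low-count filter (0.109), or without DMSO replicate 2 (0.0685), baicalin replicate 2 (0.0869) or baicalin replicate 3 (0.0599).

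The small TIM chaperones were split. They work as ring-shaped pairs, TIM9 with TIM10 and TIM8 with TIM13. Timm8a1 (chromosome X, 134537256 to 134541865), the gene mutated in human deafness-dystonia syndrome, had 6.45, 7.95 and 6.74 CPM in DMSO and 11.5, 13.3 and 14.3 CPM in baicalin. The groups did not overlap, and the rise was 1.85-fold (log2 fold change 0.89, SE 0.12, adjusted p = 9.85e-09), the highest value of the 35 tested members in the TMM fit. Lonp1 was higher than Timm8a1 after length correction (0.80 against 0.77), and Tomm70a (0.96) and Hspa9 (0.86) after length and GC correction (Timm8a1 0.78). A processed copy, Gm9797, is 100% identical to Timm8a1 over 612 bases and had 15 reads against 1053, so Timm8a1 is uncertain. Its partner Timm13 had 28.9, 28.4 and 31.3 CPM in DMSO and 41.2, 49.3 and 46.7 CPM in baicalin. The 2 groups of Timm13 were clearly separate, and the rise was 1.55-fold (log2 fold change 0.63, SE 0.07, adjusted p = 1.82e-11). Timm8b, the TIM8 gene with the higher FPKM, showed no call, with 28.0 ± 1.10 CPM under DMSO against 28.5 ± 2.57 CPM under baicalin (log2 fold change 0.02, SE 0.08). Within the other ring, Timm10 rose 1.43-fold, from 10.6 ± 0.343 to 15.2 ± 0.595 CPM, whereas Timm9 was at 14.3 ± 0.589 and 14.5 ± 1.87 CPM in the same order, without a call (log2 fold change 0.03, SE 0.10). Timm10b, which docks the ring on TIM22, was low and not called (log2 fold change -0.12, SE 0.22), and it shares 277 exon bases with Arfip2, a gene on the other strand with 6545 reads against its 326. Timm8b shares 81 exon bases with Nkapd1 on the other strand, so both are uncertain.

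In the inner membrane, Timm22, the channel for carrier proteins (chromosome 11, 76406952 to 76416292), had 26.8, 24.6 and 26.0 CPM in DMSO and 39.7, 36.4 and 39.2 CPM in baicalin. Each baicalin value lay well above each DMSO value, a 1.49-fold rise (log2 fold change 0.57, SE 0.07, adjusted p = 5.2e-10). Timm29, another subunit of the same complex, went uncalled (adjusted p = 0.201, log2 fold change 0.09, SE 0.06). It was called higher without baicalin replicate 2 (log2 fold change 0.15, adjusted p = 0.0455). Timm29 shares 107 exon bases with Yipf2, a gene on the other strand with 1158 reads against its 5333, so Timm29 is uncertain. Of the 5 TIM23 genes 4 were higher and 1 lower. Timm23, the channel-forming subunit, had 25.2, 25.3 and 22.1 CPM in DMSO and 31.5, 36.9 and 36.1 CPM in baicalin, with no overlap (1.44-fold, adjusted p = 2.97e-08). The genome holds 6 copies at least 95% identical to part of Timm23, and the 3 of them with reads had 83 reads together against 3106 for the gene. Gm10171 and Gm10233 are 100% identical to it over 628 bases and Gm10273 99.9% over 1121 bases, so Timm23 is uncertain. Timm50, the receptor that hands preproteins to the channel, rose 1.35-fold.

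The TIM17 paralogs were both called higher, Timm17a 1.15-fold (adjusted p = 0.00917) and Timm17b 1.16-fold (adjusted p = 0.0103). Their values parted under the corrections: Timm17a, at 0.21 on the log2 scale, was at 0.39 after length correction and 0.59 after length and GC correction, against 0.12 and 0.08 for Timm17b. Neither call survived library-size scaling (adjusted p = 0.334 and 0.311). The call of Timm17b was also lost after length correction (0.136), after length and GC correction (0.366), on log2(FPKM + 1) without a filter (0.0986), and without DMSO replicate 3 (0.0803) or baicalin replicate 1 (0.0813). A processed copy of Timm17a, Gm7180, is 96.3% identical over 516 bases and had 68 reads against 3225, so Timm17a is uncertain. Timm21, a subunit that links TIM23 to the respiratory chain, was lower by a log2 fold change of -0.27 (SE 0.12, adjusted p = 0.0382), with 1 baicalin library, at 11.2 CPM, inside the DMSO range of 11.1 to 12.2 CPM. That call was lost with DESeq2 (adjusted p = 0.183), after length and GC correction (0.473), without the count filter (0.121), on log2(FPKM + 1) without a filter (0.107), and on leaving out the second (0.124) or the third DMSO library (0.0821) or the first (0.135) or the third baicalin library (0.209).

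The import motor showed both a large rise and a fall. Hspa9, the mitochondrial HSP70 that pulls preproteins into the matrix (mortalin), had 481, 480 and 438 CPM in DMSO and 810, 783 and 793 CPM in baicalin. The lowest baicalin library exceeded the highest DMSO library by a wide margin, a 1.70-fold rise (log2 fold change 0.77, SE 0.04, adjusted p = 3.79e-24). Grpel1, its nucleotide exchange factor, rose 1.45-fold from 52.0 ± 1.12 to 75.2 ± 5.44 CPM, with 411 exon bases shared with Tada2b on the other strand. Timm44, which tethers HSP70 to the TIM23 channel (chromosome 8, 4259731 to 4275913), had 56.9, 56.1 and 61.4 CPM in DMSO and 46.3, 51.0 and 46.7 CPM in baicalin. All 3 baicalin libraries were below the DMSO range, a 1.21-fold fall (log2 fold change -0.28, SE 0.06, adjusted p = 3.1e-05). Among the 4 members called lower, Timm44 was the 1 whose call and direction held in all 18 alternative settings.

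Transcripts of the leader peptidase showed no call. Pmpcb, the catalytic subunit, had 63.1, 66.5 and 66.6 CPM in DMSO and 71.6, 72.3 and 65.3 CPM in baicalin, so the groups overlapped (log2 fold change 0.09, SE 0.05, adjusted p = 0.107). It was called higher without the low-count filter (0.13), after length correction (0.15), after length and GC correction (0.32), and without baicalin replicate 3 (0.15). Pmpca, the substrate-binding subunit, ranged from 70.5 to 73.9 CPM with DMSO and from 69.7 to 73.7 CPM with baicalin (adjusted p = 0.728, log2 fold change -0.02). Scaled by library size alone, Pmpca was called lower (-0.15). Exons of Pmpca overlap those of Inpp5e on the opposite strand over 874 bases.

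All 3 folding chaperones rose. Trap1, the mitochondrial member of the HSP90 family (chromosome 16, 4039971 to 4077827), had 96.9, 94.4 and 98.6 CPM in DMSO and 128, 122 and 125 CPM in baicalin. The groups were apart by more than the spread within either, a 1.29-fold rise (log2 fold change 0.37, SE 0.04, adjusted p = 2.08e-10). Hspd1, the HSP60 barrel in which matrix proteins fold, rose 1.23-fold from 252 ± 10.4 to 309 ± 7.75 CPM, and Hspe1, the HSP10 lid of that barrel, 1.2-fold from 73.9 ± 4.07 to 88.6 ± 6.77 CPM (SD, n = 3 each). A processed copy, Hspd1-ps3, is 98.96% identical to Hspd1 over 1722 bases and had 1046 reads against 29546, so Hspd1 is uncertain. The lid gene's lowest baicalin library, at 82.2 CPM, stood close above its highest DMSO library, at 78.1 CPM. Hspd1 and Hspe1 lie head to head on chromosome 1, with 112 bases of overlapping exons, and reads there cannot be assigned to 1 gene without strand.

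Because the barrel and its lid are read outward from a common stretch of DNA, that stretch is printed here from the RefSeq promoter table (GRCm38.p6, chr1:55087898-55088197, strand of Hspe1, from 250 bases before to 50 after its start). Capitals mark a heat shock element, the site type bound by HSF1: GAA, then TTC and GAA, each after 2 bases of any kind, read on both strands as overlapping matches from 89 to 72 bases before the start.

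Hspe1: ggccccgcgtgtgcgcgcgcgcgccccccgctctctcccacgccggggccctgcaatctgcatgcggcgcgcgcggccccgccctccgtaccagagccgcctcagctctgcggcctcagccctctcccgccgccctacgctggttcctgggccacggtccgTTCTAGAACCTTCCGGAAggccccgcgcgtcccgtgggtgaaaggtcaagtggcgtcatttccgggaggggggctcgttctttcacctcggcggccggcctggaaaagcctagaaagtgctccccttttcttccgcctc

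One of the RefSeq promoter windows of Hspd1 is the reverse complement of this stretch over 285 bases and holds the same match. RefSeq windows were found for 34 of the 39 members. Hspa9, Afg3l2, Timm21, Tomm7 and Tomm40l had no window, so their promoters were not searched. The heat shock letters occurred in 3 of the 37 windows of the 34 members searched, and in 0.603% of all 32851 windows of that length. The 3 windows belong to Hspd1, Hspe1 and Timm9. Those of Hspd1 and Hspe1 hold the same stretch of DNA and are not separate sites, and Timm9 was not called. The composite of C/EBP and ATF factors, TGATGCAAT, was in no window of a member and in 0.192% of all windows. The NRF1 motif, GCGCA and GCGC with 1 base of any kind between, was in windows of Hspd1, Tomm20 and Timm8b and in 4.60% of all windows. The antioxidant element, TGACNNNGC, was in windows of Tomm20 and Lonp1 and in 12.4% of all windows. These are letter matches on either strand, not measured binding.

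Among the proteases, 3 of 5 genes rose, 1 fell and 1 was not called. Lonp1, the main protease of the matrix for oxidised proteins (chromosome 17, 56614297 to 56626887), had 233, 235 and 249.98 CPM in DMSO and 408, 416 and 412 CPM in baicalin. The baicalin libraries lay close together and far from DMSO, a 1.72-fold rise (log2 fold change 0.78, SE 0.04, adjusted p = 1.63e-24). Afg3l2, a subunit of the m-AAA protease of the inner membrane, had 79.1, 75.4 and 74.7 CPM in DMSO and 130.2, 133 and 133 CPM in baicalin. It too was separated without overlap, by 1.73-fold (log2 fold change 0.79, SE 0.05, adjusted p = 1.52e-21). Clpp, the proteolytic chamber of the CLP protease, rose 1.44-fold from 44.9 ± 2.83 to 64.4 ± 2.80 CPM. Clpx, the unfoldase that feeds that chamber, stood at 51.5 ± 1.196 CPM with DMSO and 48.6 ± 2.55 CPM with baicalin, without a call (adjusted p = 0.197, log2 fold change -0.08). Scaled by library size alone, Clpx was called lower (-0.21).

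Lonp1 had the lowest p of the protease genes, and its RefSeq promoter window (GRCm38.p6, chr17:56626854-56627153, minus strand) is shown with its matches to the antioxidant element in capitals, 1 on each strand. The first match begins 102 bases before the start, and the second lies from 8 to 16 bases after it. A match to this element is common, at 12.4% of all windows.

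Lonp1: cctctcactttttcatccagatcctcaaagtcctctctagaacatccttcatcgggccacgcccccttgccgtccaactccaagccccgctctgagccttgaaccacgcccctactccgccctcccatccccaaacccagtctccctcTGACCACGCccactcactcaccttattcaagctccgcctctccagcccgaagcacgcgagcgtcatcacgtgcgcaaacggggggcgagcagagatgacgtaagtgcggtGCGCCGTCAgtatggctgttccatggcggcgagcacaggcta

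Yme1l1, the protease of the inner membrane that faces the intermembrane space (chromosome 2, 23156369 to 23199260), stood at 121 ± 2.64 CPM with DMSO and 101 ± 1.19 CPM with baicalin (SD, n = 3 each). All 3 baicalin values were below all 3 DMSO values, a 1.19-fold fall (log2 fold change -0.25, SE 0.04, adjusted p = 1.77e-06). This fall kept its call in every alternative setting except length correction and length and GC correction. Whether gene composition plays a part in it was not tested. Yme1l1 has the lowest transcript GC content of the 39 members (38.0%) and 8009 bases of exon, its call was lost after length correction (log2 fold change -0.06, adjusted p = 0.21), and after length and GC correction it was called higher (0.39, adjusted p = 3.77e-11). Across all 13714 tested genes with a value, log2 fold change and transcript GC had a Spearman rho of 0.313, and across the 35 members 0.302. Genes are not independent replicates, and both figures rest on the same 6 libraries. Further called log2 fold changes moved by over 1.5 times but kept their call. After length correction Tomm22 stood at 0.16, Hspe1 at 0.14 and Samm50 at 0.35. After length and GC correction Timm50 stood at 0.26, Trap1 at 0.23 and Tomm34 at -0.35. With library-size scaling Tomm22 stood at 0.16, Hspd1 at 0.17, Hspe1 at 0.14, Trap1 at 0.25, Tomm34 at -0.31 and Yme1l1 at -0.38, and on log2(FPKM + 1) Tomm40l stood at 0.31.

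**Figure D3:**
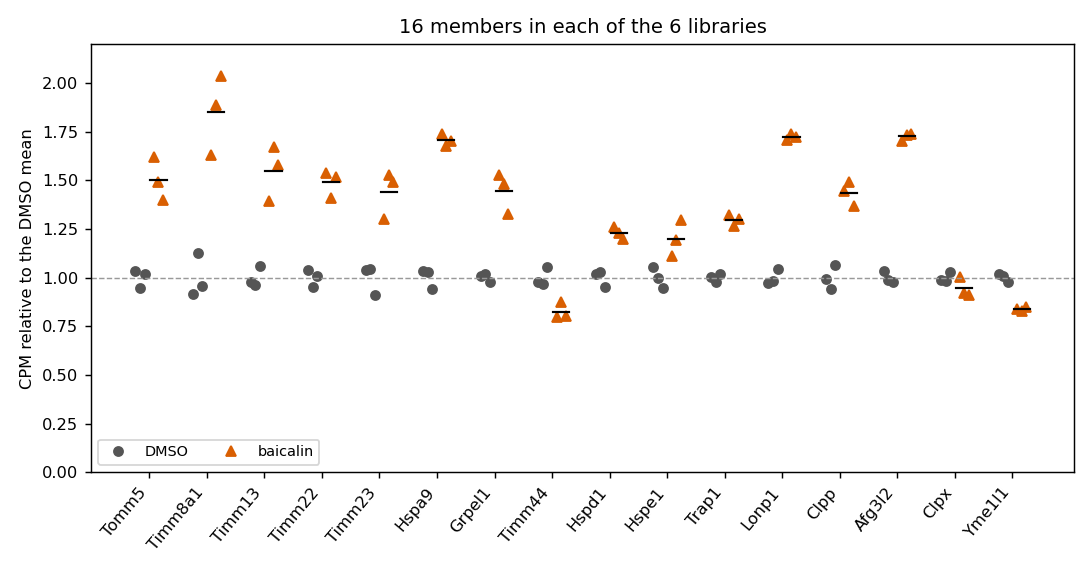
CPM of 16 members in each library divided by the gene's DMSO mean (vertical axis, linear from 0), with circles for DMSO, triangles for baicalin and a black line for the baicalin mean. Hspa9, Lonp1 and Afg3l2 stand near 1.7 in all 3 baicalin libraries, and all baicalin values of Timm44 and Yme1l1 lie below 1.

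Levels of partners and paralogs were also set against each other as the ratio of their FPKM values in each library. The ratio of Clpp to Clpx was 2.49, 2.38 and 2.59 in DMSO and 3.59, 4.04 and 3.74 in baicalin, with no overlap, a log2 difference of 0.61 (SE 0.06). The ratio of Hspa9 to Grpel1 was 8.25, 8.14 and 7.75 in DMSO and 9.15, 9.11 and 10.3 in baicalin, again without overlap (log2 difference 0.24, SE 0.06). For both, the two-sided exact permutation p was 0.1, the smallest that 3 against 3 libraries can give (0.3 adjusted over 6 ratios). The ratios of Hspd1 to Hspe1 (log2 difference 0.04, SE 0.09), Timm17a to Timm17b (-0.01, SE 0.08), Tomm40 to Tomm40l (-0.04, SE 0.16) and Pmpca to Pmpcb (-0.11, SE 0.05) overlapped between the groups. Of 3 ratios picked after their values were seen, and so not tested, Timm10 to Timm9 went from 3.91 to 5.53, Timm44 to Hspa9 from 0.134 to 0.065 and Yme1l1 to Lonp1 from 0.276 to 0.134 (geometric means). These ratios keep any trend with length and GC content. After length and GC correction the log2 fold changes of Clpp and Clpx were 0.31 and 0.02, those of Timm10 and Timm9 0.33 and 0.23, and those of Yme1l1 and Lonp1 0.39 and 0.71, each pair closer than without it. Those of Hspa9 and Grpel1 were 0.86 and 0.55, and that of Timm44 was -0.38. Other pairs moved further apart: Timm17a and Timm17b stood at 0.59 and 0.08, and Pmpca and Pmpcb at 0.01 and 0.32.

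**Figure D4:**
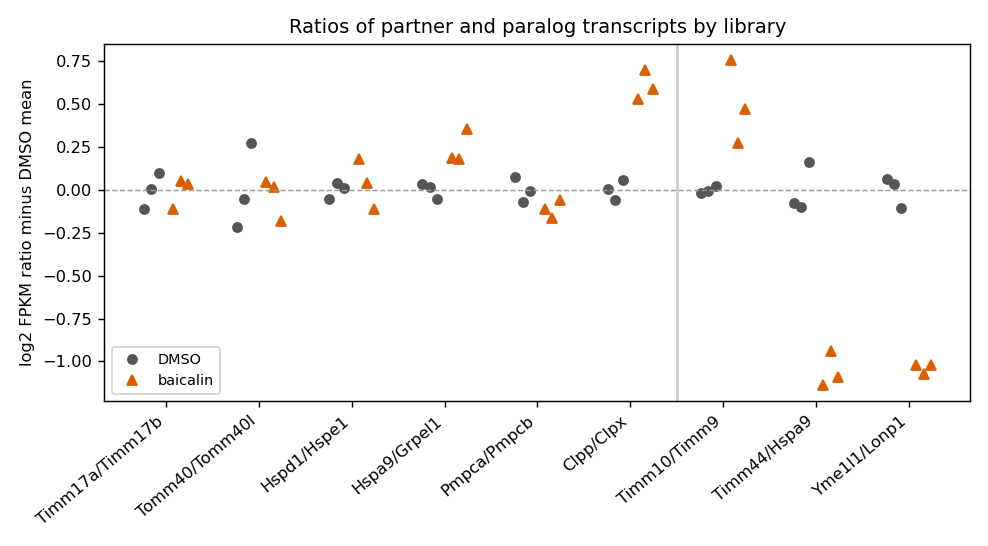
Log2 ratio of 2 transcripts' FPKM in each library minus the DMSO mean of that ratio (vertical axis), with circles for DMSO and triangles for baicalin. The 6 ratios left of the grey line are the tested ones, of which Hspa9/Grpel1 and Clpp/Clpx show no overlap, and the 3 to the right were picked after their values were seen.

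Of 38 other listed genes of import and quality control, 37 were in the table and tested. Of these, 19 (51.4%) were higher and 4 (10.8%) lower, beside 33.6% and 34.1% of all genes, and their median log2 fold change was 0.14. The largest rise was that of Atf5, a transcription factor of the mitochondrial unfolded protein response, from 135 ± 12.2 to 349 ± 12.8 CPM (2.59-fold). Dnajc15, a J-domain protein of the motor, rose 1.70-fold and Dnaja3, a matrix co-chaperone of HSP70, 1.56-fold. Mtx3, a metaxin of the outer membrane related to SAM subunits, fell 2.48-fold, from 21.8 ± 2.25 to 8.78 ± 0.13 CPM, and Hscb, a co-chaperone of iron-sulphur cluster assembly, 1.27-fold. Maip1, which helps AFG3L2 in the matrix, was called lower (log2 fold change -0.28, adjusted p = 0.0423), but stood at 0.15 and uncalled after length and GC correction, and the call was also lost in 11 other settings. The spans of Atf5 (Nup62 and Il4i1), Dnaja3 (Coro7 and Vasn) and Maip1 (Tyw5) overlap other genes, so their counts may be uncertain. Shared exons were looked for in the members alone, so an effect on these counts was not tested.

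The remaining 4 members could not be tested. Timm8a2 had no read in any library, and a count of 0 allows up to 3 reads in each (counting error only). Tomm6, another small TOM subunit, had 7 reads in all, although exons annotated to Gm21981 on the same strand cover 859 bases of it, and the rule for reads in shared exons was not given in the sources used here. Tomm20l, a paralog of Tomm20, had 1, 2 and 3 reads with the solvent and none with baicalin. Tomm6os, an antisense RNA at the Tomm6 locus that the naming rule also takes in, was covered by 17, 9 and 11 reads with the solvent and by 4, 4 and 8 with baicalin. The 35 tested members had at least 36 reads in every library, so none passed the count filter through 1 group alone.

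Total counts ran from 16730594 to 18326874. Of 10 fat cell markers, 8 had at least 10 reads in a library, with Lep at 2 reads in all, and their summed level was 505 to 586 CPM in DMSO and 399.9 to 419 CPM in baicalin. That sum is mostly Fabp4 (429.7 ± 37.9 CPM with DMSO, 298 ± 6.08 with baicalin) and holds markers that went different ways: Plin1 went from a mean of 18.9 to 5.93 CPM, Cidec from 5.28 to 0.522 and Adipoq from 1.66 to 0.136, whereas Lipe went from 59.0 to 89.2. The 7 preadipocyte or fibroblast markers summed to 7961 to 8511 CPM and 6764 to 7024 CPM, with Pdgfra (1427 to 653), Dlk1 (1297 to 584), Col1a1 (2895 to 1973) and Pdgfrb (352 to 278) lower and Col3a1 (2119 to 2874), Thy1 (115 to 245) and Ly6a (77.3 to 290.2) higher by their means. Markers of macrophages (5, at most 6.17 CPM summed) and endothelium (4, at most 0.548 CPM) were near 0, and of 4 skeletal muscle markers 1, Des, reached 10 reads in a library, with Ckm at 0 and summed levels of 7.04 to 8.71 CPM with DMSO and 15.5 to 16.8 CPM with baicalin. The part of these shifts in the results above was not tested, and in bulk RNA fewer cells of a type and less RNA per cell cannot be told apart.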

How the data were processed

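Read counts per gene, in the deposited table, were made by the authors with featureCounts 1.5.0-p3, per the series design text, on mm10, per the submitters' processing notes. The authors derived the deposited FPKM from these counts and the gene length, per the same text. Aligner, annotation and strand setting were not given in the sources used here. All 12 per-sample columns matched a sample by title, with 0 left over.

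The members, lists and tests were chosen with earlier results of these data known. Counts were fitted by robust quasi-likelihood in edgeR 4.0.16 under R 4.3.3, after filterByExpr and with TMM factors, treatment being the only term and p-values adjusted over all 13728 genes tested by the Benjamini-Hochberg method. Standard errors are the log2 fold change divided by the root of the F statistic. CPM values carry the TMM factors. On simulated counts the test recovered 36% of the genes given a 1.2-fold change and 80.4% of those given 1.5-fold. It recovered 87.8% of those given 2-fold and each of the 49 given 4-fold, and made 7 false calls in 13299 genes left as they were. In that simulation 50, 46, 49 and 49 genes of 13493 carried these changes, whereas 9294 of the 13728 real genes were called. The adjustment lets through larger p-values when more genes change, so these rates do not describe the real fit.

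Coordinates come from GENCODE M21, on the same assembly as mm10, in which 54495 of the identifiers were found. Copies are transcripts at least 95% identical over 200 bases (blastn 2.17.0). Per-library values are given for called members changed at least 1.5-fold and for the lowest p in each role, and other members are given where a result turns on them. Alternatives were limma-voom (limma 3.58.1), DESeq2 1.42.0, RLE factors, library size alone, no count filter, a minimum of 1 CPM throughout a group of 3, a block for replicate number, length correction (lowess span 0.3), limma-trend on FPKM logs with a pseudocount of 1 or 0.1 and a minimum FPKM of 1 in 3 libraries, the same with pseudocount 1 unfiltered, and each library left out. Correction for both length and GC was added after seeing the data. Figures were drawn with matplotlib 3.10.9.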

Additional observations from a re-analysis of the deposited data

How the results depend on the processing

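Over 18 alternatives, 21 of the 27 called members kept their call and direction in each one, and 6 lost it in at least 1 (Timm21, Tomm34, Timm17a, Timm17b, Samm50 and Yme1l1). The only called member to change sign was Yme1l1, at 0.39 after length and GC correction. A further 6 members without a call gained one in some setting (Pmpca, Pmpcb, Clpx, Tomm20, Timm9 and Timm29). Members called lower numbered 2 with DESeq2, with no low-count filter and after length and GC correction, against 4. The median log2 fold change over all tested members, 0.30, was 0.31 with DESeq2, 0.17 with library size alone, 0.34 with no low-count filter and 0.35 on log2(FPKM + 0.1). It was from 0.31 to 0.33 without 1 library. The median over all genes tested, 0.001 in the TMM fit, was -0.145, -0.126, -0.121 and 0.047 in the first 4 of these settings, in the same order. These medians cover different sets of genes. They rest on 27246 genes with DESeq2 and with no low-count filter, and on 11609 on log2(FPKM + 0.1). The TMM fit and library size alone share a set of 13728 genes. Other import and quality-control genes called lower numbered 8 with library size alone, against 4. Apart from the construction of each alternative, the cause was not tested. Same-numbered libraries of the 2 groups had deviations that correlated at 0.035, 0.037 and -0.002. DMSO replicates 1 and 2 correlated best with their own number, and DMSO replicate 3 did not. The correlations were small, and with 3 libraries a group they cannot decide whether the numbers pair libraries. With the replicate block, 4660 genes were called higher and 4731 lower (4618 and 4676 without it), and members stayed at 23 and 4. Depth limits Timm10b, Tomm40l and Timm8a1 most, with the fewest reads of the tested members.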
